A study of Drosophila melanogaster with 4 samples.

Results

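The genes described here drive entry into mitosis, chromosome segregation and cytokinesis in the Drosophila wing imaginal disc, a sac of larval epithelium from which the adult wing and notum develop. They were chosen by name: 36 symbols were listed, 24 of them name a probe set in the array's annotation, and these 24 were read out of 11981 named genes. The other 12 (CycA, Cdk1, stg, Myt1, polo, aurA, BubR1, Klp3A, asp, pav, sti and pnut) are not analysed here. Entry into mitosis is thus represented by CycB and CycB3 alone, of 8 listed genes. Of the 24, 23 have 1 probe set, and fzy has 3, of which the brightest was used while the other 2 were below the floor on all 4 arrays.

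RNA came from wing discs of 3rd-instar larvae raised at 25 degrees, in a yw background, with 1 Affymetrix array for each of 4 genotypes. Control discs carried en-Gal4 alone (yw; en-Gal4/+), and every other genotype carried the same driver. PI3K discs added a UAS-PI3K overexpression transgene (en-Gal4/UAS-PI3K ov), Hdac3 RNAi discs added UAS-Hdac3 RNAi (over a + chromosome), and the fourth genotype carried both transgenes. The engrailed driver acts in posterior cells, so each array with a UAS transgene mixes cells that express it with anterior cells that do not. The number of discs or animals per array is not given in the labels. The series title concerns the loss of histone deacetylase 3 and the overgrowth that PI3K drives. The comparisons below ask whether transcripts of the mitotic machinery differ with either transgene.

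Mitosis begins when the kinase Cdk1, bound to cyclins A and B, is activated by the phosphatase String. Chromosomes are compacted by condensin and attached to spindle microtubules through kinetochores built on the centromeric histone Cid. The spindle checkpoint holds back the anaphase-promoting complex until all chromosomes are attached. That complex, with its activators Fizzy and then Fizzy-related, marks cyclins and securin for destruction, after which separase opens the cohesin ring and the central spindle and contractile ring divide the cell. Wing disc cells divide through most of larval life, and String transcription is known to set when they pass from G2 into mitosis.

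All values are intensities scaled to a common 2% trimmed mean, and differences are log2 ratios of these intensities. A floor of 26.9, the 90th percentile of 125 odorant and gustatory receptor probe sets, marks where signal is no longer told from background. With 1 array per genotype a single ratio has no replicate error, so every ratio is read beside the same value over all genes. For single genes, where 431 genes had several probe sets above the floor, the within-gene SD of the log2 ratio was 0.24 in PI3K against control, 0.18 in Hdac3 RNAi against control and 0.15 in both transgenes against Hdac3 RNAi. A gene was counted as higher or lower when it differed by 1.5-fold or more and reached the floor on either array compared. In RNA from whole discs, fewer dividing cells and less RNA per cell cannot be told apart.

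Transcripts of all 24 genes were present and close to constant across the genotypes. Every one was at or above the floor on all 4 arrays, against 60.9% of all named genes. The highest array was at most 1.41 times the lowest for any of them. For 19 of the 24 this range stayed under 1.2-fold, against 51.8% of the 7301 genes above the floor on all arrays and 57.6% of the 5231 genes at least as bright as the dimmest of the 24. The summed intensity of the 24 genes was 27878 in control discs, 26919 with PI3K, 27082 with Hdac3 RNAi and 27409.9 with both.

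**Figure D1:**
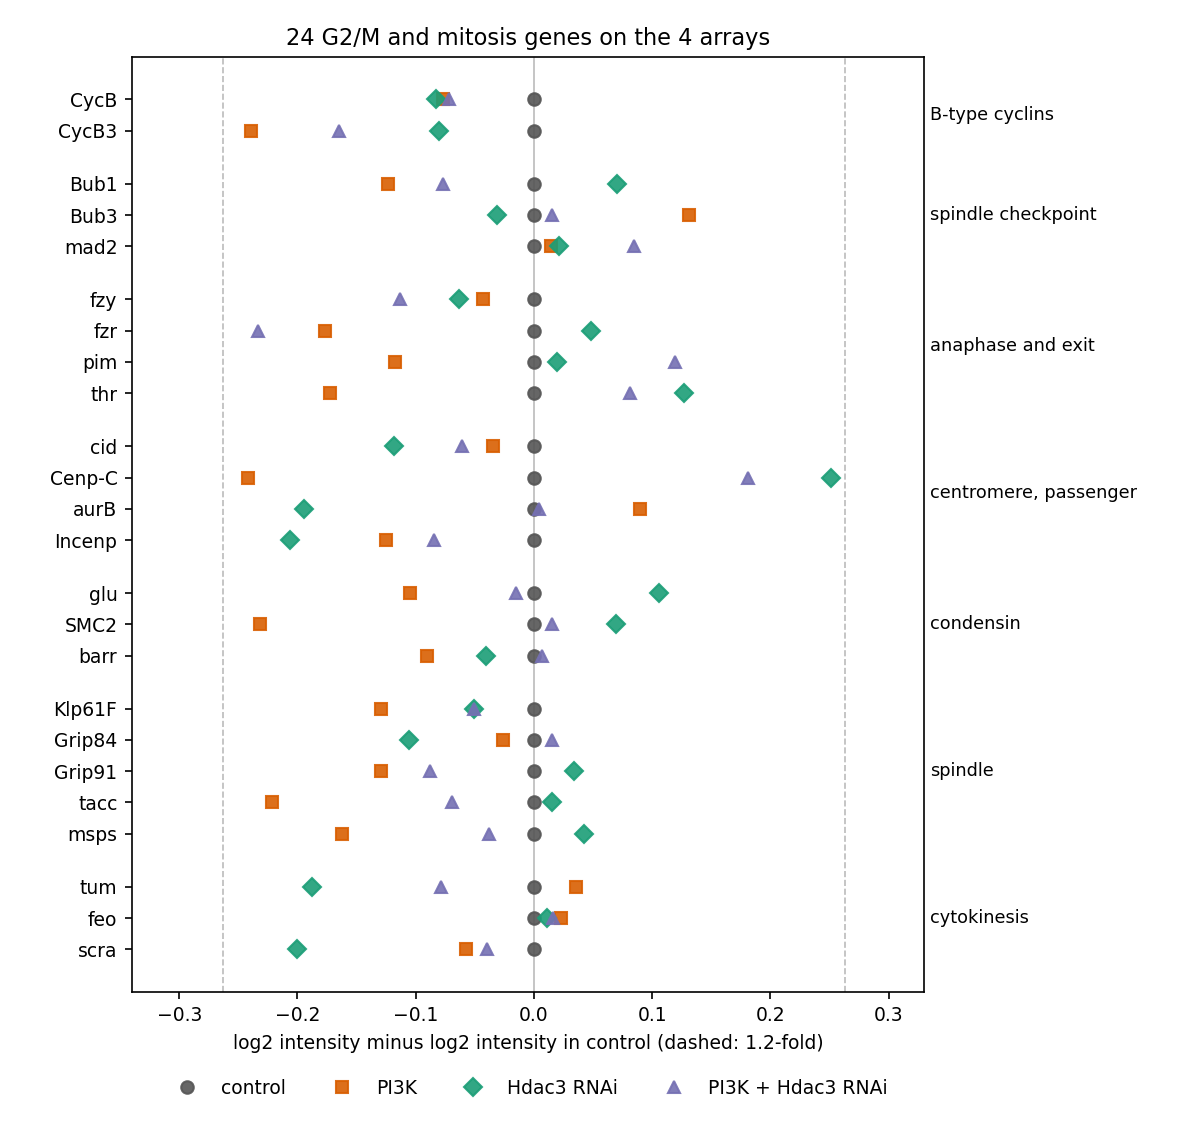
Log2 intensity of each of the 24 genes minus its log2 intensity in control (x axis), 1 row per gene grouped by role, with 1 symbol per array; dashed lines mark 1.2-fold. The symbols all lie within 1.2-fold of control, the PI3K squares mostly left of 0, and the Hdac3 RNAi diamonds on either side.

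The B-type cyclins, the regulatory partners of Cdk1 that are destroyed at anaphase, were highest in control. The intensity of CycB was 2019 in control discs, 1914 with PI3K, 1906 with Hdac3 RNAi and 1921 with both. CycB3, which promotes anaphase, had 661, 560.0, 625 and 589.7 in the same order. The 3 transgene arrays were alike for CycB, at log2 ratios of -0.07 to -0.08 against control. For CycB3 the PI3K array was the lowest (log2 ratio -0.24 against control), next to -0.16 with both transgenes and -0.08 with Hdac3 RNAi.

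Among genes of the spindle checkpoint, which delays anaphase while chromosomes are unattached, no shared direction appeared. Bub3, which brings Bub1 and BubR1 to the kinetochore, had 4509 in control discs, 4939 with PI3K, 4413 with Hdac3 RNAi and 4556 with both. It had the highest PI3K ratio of the 24 genes (log2 0.13). The kinase gene Bub1 ran the other way, with 443, 407, 466 and 420.3 in the same order, a PI3K ratio of -0.12. For mad2, which inhibits the anaphase-promoting complex, the arrays read 856, 865, 869 and 908, and its largest log2 difference from control was 0.08.

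The genes of anaphase and mitotic exit were all below control in PI3K discs, where 44.8% of all genes were. They parted from each other with both transgenes. The complex's mitotic activator fzy (the fly Cdc20) had 1493 in control discs, 1449 with PI3K, 1429 with Hdac3 RNAi and 1381 with both, highest in control and lowest with both. Its counterpart fzr (Cdh1), which acts from late mitosis into G1 and is needed for the switch to endocycles, had 336, 297, 347 and 286. The fzr values on the 2 PI3K-carrying arrays were both below those on the other 2.

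The log2 ratio of fzr for PI3K was -0.18 in discs without Hdac3 RNAi and -0.28 in discs with it. The second value was the only difference of at least 1.2-fold among the 24 genes in both transgenes against Hdac3 RNAi, where 5.21% of all genes were that much lower. The only probe set of fzr has a cross-hybridisation suffix (_s_), as do those of barr and tacc. With the median of all genes of like span subtracted, the fzr ratios were -0.03 and -0.24, the latter under 1.2-fold. Securin (pim), the anaphase inhibitor, had 982 in control discs, 905 with PI3K, 996 with Hdac3 RNAi and 1067 with both. Separase (thr) had 215, 191, 235 and 227 in the same order. For this pair the PI3K array was the lowest of the 4, and adding Hdac3 RNAi to PI3K came with log2 ratios of 0.24 for pim and 0.25 for thr.

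Among centromere and chromosomal passenger genes, Cenp-C alone had a wide range, the widest of the 24 at 1.41-fold between highest and lowest array. Cenp-C, which links centromeric chromatin to the outer kinetochore, had 375 in control discs, 317 with PI3K, 446 with Hdac3 RNAi and 425 with both. The 2 arrays with Hdac3 RNAi were above control and the PI3K array was below it. The log2 ratio of Hdac3 RNAi was 0.25 against control and 0.42 against PI3K, the latter 1.34-fold. This was the only gene of the 24 at least 1.2-fold higher in both transgenes against PI3K, where 12.1% of all genes were.

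The centromeric histone gene cid, by contrast, stayed between 145 and 157 on the 4 arrays. The passenger kinase aurB had 1122 in control discs, 1193 with PI3K, 980.2 with Hdac3 RNAi and 1125 with both. Incenp, the scaffold that activates aurB, had 1847, 1694, 1601 and 1742. Both were lowest in Hdac3 RNAi discs, at log2 ratios of -0.19 and -0.21 against control. The other passenger subunits, borr and Det, were measured as part of a wider list and had -0.05 and -0.02 in the same comparison; they are named here after their values were seen.

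Condensin subunits, which compact chromosomes, were each lowest in PI3K discs, as were 29.4% of all genes above the floor. SMC2 had 671 in control discs, 572 with PI3K, 705 with Hdac3 RNAi and 678 with both. Its partner glu (SMC4) had 514, 478, 553 and 509, and the kleisin subunit barr had 1347, 1264, 1309 and 1353. The PI3K ratios were -0.23 for SMC2, -0.11 for glu and -0.09 for barr. With both transgenes all 3 were within 0.02 of control on the log2 scale.

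Spindle genes, like the condensin genes, had a shared direction. All 5 were below control in PI3K discs and above PI3K when Hdac3 RNAi was added. Over all genes 44.8% were below 0 in the first comparison and 43.4% above 0 in the second. Both comparisons use the PI3K array. Grip84, Grip91, msps and tacc are in the quartile of genes with the longest span, where all genes had medians of -0.16 and 0.11. The centrosomal tacc, which recruits the microtubule polymerase Msps, had 1079 in control discs, 925 with PI3K, 1090.2 with Hdac3 RNAi and 1028 with both. For msps itself the arrays read 2395, 2139, 2466 and 2333, and for the bipolar kinesin Klp61F 1645, 1504, 1588 and 1588. PI3K ratios were -0.22 for tacc, -0.16 for msps and -0.13 for Klp61F.

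The γ-tubulin ring complex genes, whose products nucleate spindle microtubules, differed in which array was the lowest. Grip91 had 560.2 in control discs, 512 with PI3K, 573 with Hdac3 RNAi and 527 with both. Grip84 had 639, 627, 594 and 646, with Hdac3 RNAi and not PI3K the lowest array. Log2 ratios of PI3K were -0.13 for Grip91 and -0.03 for Grip84.

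For 2 of the 3 cytokinesis genes the Hdac3 RNAi array was the lowest, as it was for 8 of the 24 and for 35.6% of all genes above the floor. The RacGAP gene tum, a centralspindlin subunit, had 901 in control discs, 924 with PI3K, 791 with Hdac3 RNAi and 853 with both. The anillin gene scra, a scaffold of the contractile ring, had 1325, 1273, 1153 and 1289. Their Hdac3 RNAi ratios against control were -0.19 and -0.20. The microtubule bundling gene feo (PRC1) was the flattest of the 24, at 1787, 1816, 1801 and 1807, a range of 1.02-fold.

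In PI3K against control, 19 of the 24 genes had a log2 ratio below 0, where 44.8% of all genes did. Their median was -0.11 beside 0.02 over all 7802 genes, with ratios from -0.24 (Cenp-C) to 0.13 (Bub3). No gene of the 24 was at least 1.5-fold apart, where 2.01% of all genes were higher and 3.04% lower, nor at least 1.2-fold apart, where 10.6% were higher and 13.5% lower. The 5 above 0 were Bub3, aurB, tum, feo and mad2. The PI3K array was the lowest of the 4 for 12 of the 24 genes and for 29.4% of all genes above the floor.

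**Figure D2:**
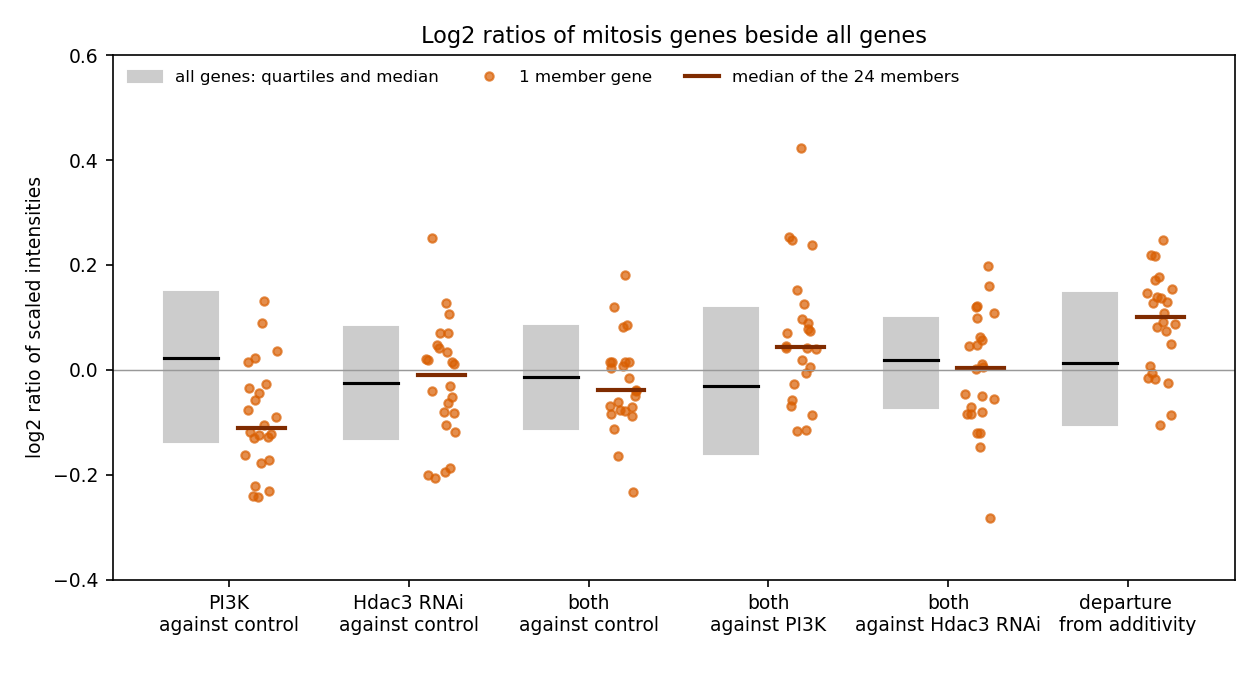
Log2 ratios of scaled intensities (y axis) in 5 comparisons and in the departure from additivity (x axis); points are the 24 genes with their median as a dark line, and grey bars span the quartiles of all genes with the median as a black line. The median of the 24 lies farthest below that of all genes in PI3K against control (-0.11 beside 0.02) and farthest above it in the departure (0.10 beside 0.01). The departure contains the PI3K against control ratio with its sign reversed, so these are not separate results.

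In Hdac3 RNAi against control 12 of the 24 genes were above 0 and 12 below, where 43.3% of all genes were above, and their median of -0.01 lay beside -0.03 over all 7730 genes. This split depends on the scaling: 8 genes were below 0 when arrays were scaled to the median of detected genes, and 14 on the deposited values. The highest were Cenp-C (0.25), thr (0.13) and glu (0.11), and the lowest Incenp (-0.21), scra (-0.20), aurB (-0.19) and tum (-0.19). None was at least 1.5-fold apart, where 1.13% of all genes were higher and 1.55% lower, and none was at least 1.2-fold apart, where 6.68% were higher and 8.67% lower.

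Discs with both transgenes differed little from control. The median log2 ratio was -0.04 beside -0.01 over all 7757 genes, with 14 genes below 0 where 54.1% of all genes were. That count was 11 with scaling to the median of detected genes and 19 on the deposited values. The ratios ran from -0.23 (fzr) to 0.18 (Cenp-C), and none was at least 1.5-fold apart, where 1.01% of all genes were higher and 1.71% lower, or 1.2-fold apart, where 6.19% were higher and 7.35% lower. Of the 24 genes, 2 (fzy and fzr) had their lowest value on this array, as did 16.3% of all genes above the floor.

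Against PI3K alone, adding Hdac3 RNAi came with 17 of 24 genes above 0, where 43.4% of all genes were. The median was 0.04 beside -0.03 over all 7837 genes. Besides Cenp-C, the highest were thr and SMC2 (both 0.25) and pim (0.24), and the lowest were Bub3 (-0.12), tum (-0.11) and aurB (-0.09). None was at least 1.5-fold apart, where 2.96% of all genes were higher and 2.3% lower. This comparison shares the PI3K array with PI3K against control. At 1.2-fold, 11.5% of all genes were lower and none of the 24 was.

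Against Hdac3 RNAi alone, adding PI3K came with 13 genes above 0 and 11 below, where 56.4% of all genes were above. The median was 0.00 beside 0.02 over all 7755 genes. The highest were aurB (0.20), scra (0.16) and Incenp (0.12), and fzr was the lowest. None was at least 1.5-fold apart, where 0.683% of all genes were higher and 1.19% lower. At 1.2-fold none was higher, where 5% of all genes were.

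The departure from additivity, what Hdac3 RNAi added on the log2 scale when PI3K was present less what it added alone, was above 0 for 18 of 24 genes, where 52.7% of all genes were. Its median was 0.10 beside 0.01 over 7301 genes. The departure contains the ratio of PI3K against control with its sign reversed, so a low PI3K array by itself raises it. The largest values belonged to Incenp (0.25), pim (0.22) and scra (0.22), and the lowest to fzr (-0.10) and Bub3 (-0.09). None reached 1.5-fold, where 2.25% of all genes were higher and 2.01% lower, or 1.2-fold, where 12.5% were higher and 8.16% lower.

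The PI3K effect was measured in 2 pairs of arrays that have no array in common, PI3K against control and both transgenes against Hdac3 RNAi. The sign was the same in both pairs for 16 of the 24 genes (66.7%), near the 67.2% of all 7301 genes above the floor. Of the 16, 11 were below 0 in both (45.8% of the 24, where 28.2% of all genes were): CycB3, Bub1, fzy, fzr, thr, Cenp-C, glu, SMC2, Grip91, tacc and msps. The 5 above 0 in both were Bub3, mad2, aurB, tum and feo. None of the 24 was above 0 in the first pair and below 0 in the second, which 15.3% of all genes were. Only 5 of the 24 were above 0 in the first pair, which limits that count. Among those below 0 in the first pair, 11 were below and 8 above 0 in the second. Over all genes these counts were 2062 and 1278. The number below 0 in both thus largely follows the signs in the first pair.

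The ratios of the 2 pairs correlated across the 24 genes with a Pearson r of 0.61, and with 0.08 across all genes. Ratios of the 24 ran from -0.24 to 0.13 in the first pair and from -0.28 to 0.20 in the second. All genes include far wider ratios, such as Fbp2 at 2.15 and -3.56, so the 2 r values are not like measures. After subtracting the median of all genes of like span, r across the 24 was 0.28. These genes share the same 4 arrays and are not independent replicates.

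The Hdac3 RNAi effect likewise has 2 pairs without a shared array. Here 15 of 24 genes (62.5%) had the same sign in both, beside 68.4% of all genes. With quantile normalization 14 of 24 (58.3%) did, beside 68.3% of all genes. Those above 0 in both were Bub1, mad2, pim, thr, Cenp-C, glu, SMC2, Grip91, tacc and msps, and those below were Bub3, fzy, cid, aurB and tum. Of those above 0 in both, all but mad2 and pim were below 0 in both PI3K pairs. Being above 0 in both held for 10 of 24 (41.7%) and for 27.2% of all genes. The signs in Hdac3 RNAi against control depend on the scaling, and the other pair contains the PI3K array. Across the 24 genes r was 0.70, and 0.28 across all genes. Far wider ratios among all genes limit this comparison as well. With the span medians subtracted, r across the 24 was 0.59.

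A fit across the 7696 genes that reached the floor on 2 or more arrays took PI3K and Hdac3 RNAi as additive terms, which leaves 1 residual degree of freedom per gene. With limma and Benjamini-Hochberg adjustment, 0 of the 24 genes had an adjusted p under 0.05 for PI3K, where 0.013% of all genes did, and 0 for Hdac3 RNAi, where 0.026% did. At an unadjusted p under 0.05, 1 of the 24 passed for each term, beside 10.6% of all genes for PI3K and 15.5% for Hdac3 RNAi. They were fzr for PI3K, at a log2 effect of -0.23 (SE 0.08, limma adjusted p = 0.464), and Cenp-C for Hdac3 RNAi, at 0.34 (SE 0.08, limma adjusted p = 0.316). The fit counts any departure from additivity as error.

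**Figure D3:**
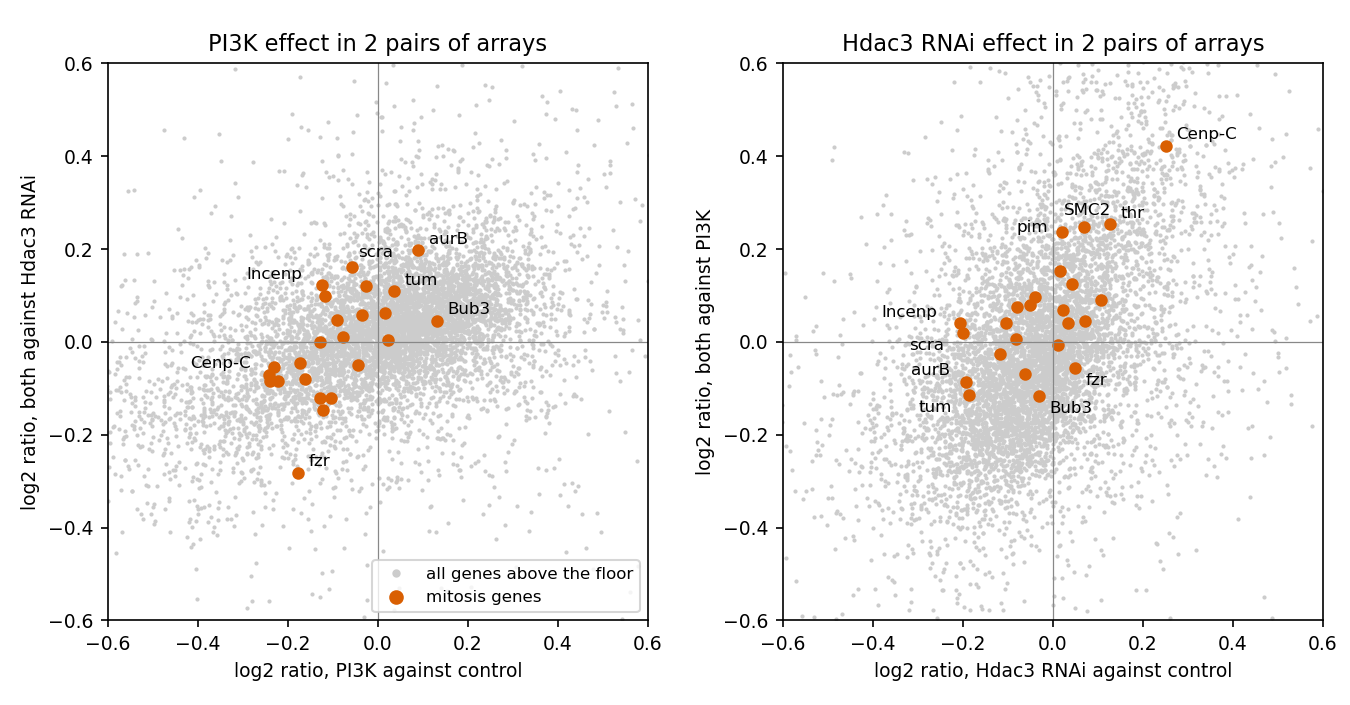
Left, the PI3K log2 ratio without Hdac3 RNAi (x axis) and with it (y axis); right, the Hdac3 RNAi log2 ratio without PI3K (x axis) and with it (y axis). Orange points are the 24 genes, and grey points all genes above the floor on all 4 arrays that fall within the axes. The lower right of the left panel holds none of the 5 orange points right of 0, and Cenp-C is the highest in the right panel.

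Gene span moved with the PI3K ratio. Spans in the RefSeq gene table ran from 959 bp (mad2) to 15403 bp (tacc) among the 24, with a median of 3731 bp beside 2715 bp over all genes above the floor. The Spearman rho of the PI3K ratio with span was -0.61 across the 24 genes and -0.44 across 7771 genes. In the quartile of shortest genes all genes had a median PI3K ratio of 0.11 and the 5 mitosis genes there 0.01. In the quartile of the longest the medians were -0.16 and -0.16, again with 5 mitosis genes. In the third quartile, which holds 11 of the 24, they were -0.02 and -0.12. With the median of genes of like span subtracted, the median PI3K ratio of the 24 was -0.08 beside 0 over all genes, with 19 below 0. The distance of the 24 from all genes was thus -0.08 in place of -0.13.

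The array's 3' to 5' control ratios for actin, eIF-4a and both GAPDH controls were lower with PI3K than in control, and that of 18S rRNA was not. The actin control had 3.36 in control discs, 2.02 with PI3K, 3.25 with Hdac3 RNAi and 2.85 with both, and eIF-4a had 3.95, 3.11, 3.94 and 3.67. One GAPDH control had 2.17, 1.92, 2.21 and 1.995, and the other 5.91, 5.65, 5.91 and 5.41. For 18S rRNA they were 4.87, 4.95, 4.77 and 4.86. The PI3K array was the lowest for 3 of the 5, the double-transgene array for 1 and the Hdac3 RNAi array for 18S. The part of these ratios in the PI3K values was not tested.

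**Figure D4:**
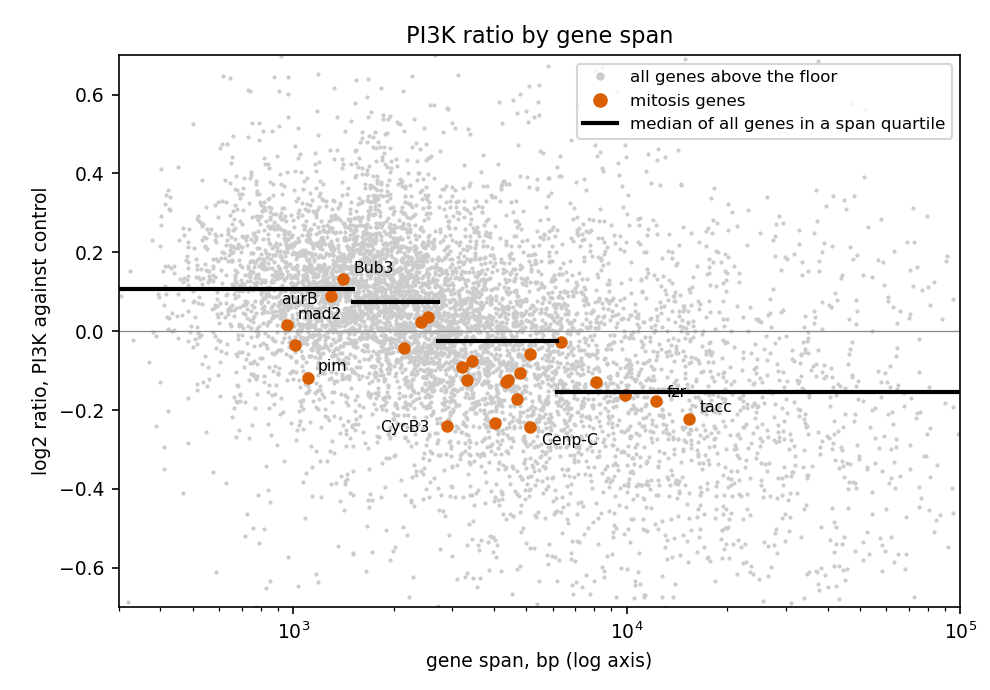
Log2 ratio of PI3K against control (y axis) by gene span in bp (x axis, log scale); orange points are the 24 genes, grey points all genes above the floor that fall within the axes, and black lines the median of all genes in each quartile of span. Median lines step down from 0.11 to -0.16, and most orange points in the third quartile lie below its line at -0.02.

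By chromosome, 4 of the 24 genes (fzr, Grip84, Grip91 and feo) are on the X and 20 on the arms of the major autosomes. In Hdac3 RNAi against control the 4 had a median log2 ratio of 0.02 and the 20 a median of -0.04. Over all genes the median was -0.03 on the X and -0.02 on the autosome arms.

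Other genes of the same machinery were read from a list fixed by name, of which 79 of 93 names matched the annotation and 74 were above the floor on at least 1 array. These cover the anaphase-promoting complex, cohesin, kinetochore, further kinesins, centrosome, augmin and cytokinesis. In PI3K against control 51 of 74 were below 0, where 44.8% of all genes were, with a median of -0.07. Of the 74, 2 were at least 1.5-fold lower and 0 higher, where 3.04% of all genes were lower and 2.01% higher, so the share lower is near the background. The 2 were cmet, a kinetochore kinesin related to CENP-E, and Haspin, a kinase of histone H3 at centromeres.

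The cmet intensity was 489 in control discs, 316 with PI3K, 584 with Hdac3 RNAi and 514 with both, a PI3K ratio of -0.63 and a ratio of 0.70 for both transgenes against PI3K. Haspin had 295, 193, 309 and 302, with ratios of -0.61 and 0.64 in the same comparisons. In each the PI3K array alone was low. With the span medians subtracted, the PI3K ratios were -0.50 for cmet and -0.37 for Haspin, neither of them 1.5-fold. Over the 8 processing alternatives the PI3K ratio of cmet was under 1.5-fold in that 1 and that of Haspin in 4, from -0.64 to -0.37. Against PI3K, the ratio of Haspin was 0.39 with the span medians subtracted.

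The formin gene dia, which nucleates actin for the contractile ring, was the only 1 of the 74 at least 1.5-fold apart in Hdac3 RNAi against control, where 1.55% of all genes were lower and 1.13% higher, so the count is near the background. It had 749 in control discs, 665 with PI3K, 496 with Hdac3 RNAi and 736 with both. The Hdac3 RNAi array alone was low, at -0.60 against control, and the ratio in PI3K discs was 0.15. The probe set of dia has a cross-hybridisation suffix. Over 7 alternatives that keep it, the value against control ran from -0.61 to -0.53 and was under 1.5-fold in 2.

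Genes of G1/S control and DNA replication, the neighbouring phase of the cycle, were read for comparison. All 41 that matched were above the floor on all arrays. Their median was -0.03 in PI3K against control, with 25 of 41 below 0, beside -0.11 and 19 of 24 for the mitosis genes. Over all genes the median was 0.02, with 44.8% below 0. The difference between the lists was not tested, and these medians do not have the span medians subtracted. In both transgenes against PI3K the medians were -0.03 and 0.04. None of the 41 was 1.5-fold apart in any of the 5 comparisons, where 0.683% to 3.04% of all genes were in each direction.

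Among markers of tissues that could be carried along with the discs, those of fat body and salivary gland ranged far more widely than the mitosis genes. The summed intensity of 7 fat body markers was 4186 in control discs, 13815 with PI3K, 7787 with Hdac3 RNAi and 1993 with both, and that of 6 salivary glue genes was 625, 4123, 636 and 449.95. Yp1 and Sgs1 were below the floor on all arrays. Obp99a did not follow the other fat body markers, at 1083 in control discs, 986 with PI3K, 1188 with Hdac3 RNAi and 1157 with both. Of 8 wing disc markers, 7 had a PI3K ratio below 0, with a median of -0.33 and summed intensities of 10675, 8164, 11907 and 11159. All 8 were above the floor on all arrays, and of 4 testis and germline markers 3 were below it on all. Summed intensities of 6 muscle precursor markers lay between 1129 and 1359 over the arrays, of 4 neuron markers between 280.0 and 386, and of 7 hemocyte markers between 1746 and 2545, with sns and para below the floor on all. The part of these tissues in the mitosis values was not tested.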

How the data were processed

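The deposited table holds intensity values on a linear scale for 18952 probe sets, 1 column per array. Per the submitters' processing notes the authors used MAS5; no version or settings are named there. The deposited 2% trimmed means were 287, 281, 283 and 284. The probe annotation dates from 2016, and 13646 probe sets with 1 symbol name 11981 genes. Here each array was rescaled so that all 4 had the same trimmed mean, low values were set to the floor, and log2 was taken. A gene took its probe set with the highest mean over the 4 arrays. Gene spans and chromosomes came from the RefSeq table of Release 6, matched by gene ID. The steps were tested on simulated data. Single ratios have no p-value, since each genotype has 1 array; an additive fit of both transgenes in limma 3.58.1 (R 4.3.3), added after seeing the data, gave p-values for the main effects and none for the interaction. Genes named are all members, and of the other lists those at least 1.5-fold apart and list leaders; exceptions are stated. The members and lists were chosen with earlier results of these data known. Python 3.11.15, numpy 2.4.6, pandas 2.3.3 and scipy 1.17.1 were used.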

Additional observations from a re-analysis of the deposited data

Results flagged for a closer look

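Incenp had PI3K log2 ratios of opposite sign in the 2 backgrounds, -0.12 against control and 0.12 when PI3K was added to Hdac3 RNAi, each at least 0.1 from 0. The cytokinesis formin gene dia did so as well, with PI3K ratios of -0.17 and 0.57, and with Hdac3 RNAi ratios of -0.60 against control and 0.15 in PI3K discs. The 2 values for dia rest on the low Hdac3 RNAi array. With 1 array per genotype these differences between backgrounds were not tested.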

How the results depend on the processing

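Each median was recomputed under 8 alternatives: no rescaling, quantile normalization, scaling to the median of detected genes, a floor of 53.8, no floor with 16 added, the mean over probe sets, probe sets without a cross-hybridisation suffix, and ratios minus the median of genes of like span in 20 bins. With 1 array per genotype a median was counted as moved when it changed sign or size by over 1.5 times, a rule chosen after seeing the values. The PI3K median stayed below 0 in all 8 (-0.14 to -0.08, with 16 to 21 genes below 0), the ratio of both transgenes to PI3K above 0 (0.04 to 0.06) and the departure from additivity above 0 (0.05 to 0.13, lowest with median scaling at 0.0529). These medians all use the PI3K array. By the rule, the departure from additivity moved with median scaling, from 0.10 to 0.0529. Medians next to 0 moved as well. Hdac3 RNAi against control (-0.01, with 8 to 14 genes below 0) was -0.0279 without rescaling, -0.0284 with quantile normalization, -0.0310 without suffixed probe sets, -0.0049 with the probe set mean, 0.0555 with median scaling and 0.0202 with span medians subtracted. Both transgenes against control (-0.04, with 11 to 19 below 0) was 0.0063 with median scaling and -0.0040 with span medians subtracted. Both against Hdac3 RNAi (0.00, with 9 to 15 below 0) was 0.0052 without rescaling, 0.0046 without suffixed probe sets, -0.00093 with quantile normalization, -0.0177 with median scaling and -0.0131 with span medians subtracted. The cause was not tested. The largest shift of the median of all genes was 0.0636 on the log2 scale. At 1.2-fold instead of 1.5-fold, 1 of the 24 genes was called in both transgenes against PI3K and 1 in both against Hdac3 RNAi, each from 0, by construction of a lower threshold; at 2-fold none was. The genes with the same PI3K sign in both pairs numbered 16 to 19 of 24, and 19 (79.2%, beside 67.6% of all genes) with quantile normalization. No paired analysis was possible because each genotype has 1 array. The span and quantile alternatives for the correlations, and the bright-gene background, were chosen after seeing the data.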
